A study of Homo sapiens with 16 samples.

Results

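Proximal 20q, from 30 to 40 Mb of chromosome 20 on GRCh37, is the stretch of the long arm that lies next to the centromere, and it was examined here for TOP2B in PC9 cells. Its members were the peak intervals on chromosome 20 whose midpoint lay from 30 Mb to below 40 Mb. There were 702 members among the 44922 intervals of 4 lists: 389 of 15281 in untreated wild type, 135 of 12493 in the untreated knockout, 125 of 9655 in osimertinib-treated wild type and 53 of 7493 in the knockout under osimertinib. The region was chosen with these counts known, so they describe it and carry no test.

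PC9 is an established human lung adenocarcinoma line whose growth depends on a mutant, activated EGFR. The series holds 16 CUT&RUN samples in 8 groups of 2 replicates, of which the 8 TOP2B samples gave the 4 lists used here. Untreated wild type is PC9 with METTL7A intact, and the untreated knockout is PC9 carrying a METTL7A knockout, both without drug. The treated groups are the same 2 genotypes after 6 to 8 weeks in osimertinib, an EGFR inhibitor, with the dose raised stepwise from 100 nM. Whether the knockout is 1 clone or a pool, and whether replicates were separate cultures, does not stand in the sources used here. CUT&RUN uses an antibody to direct a nuclease to chromatin, so that DNA around the target is cut out and sequenced. Each list was made by the authors from the 2 replicates of a group, so that a condition has 1 list. With no replicate lists there was no spread to judge a difference between conditions by, and the 95% intervals given below cover counting error only.

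TOP2B is the beta isoform of DNA topoisomerase II. The enzyme cuts both strands of a DNA duplex, passes another duplex through the break and reseals it, which relieves the twist that transcription and chromatin loops build up. In interphase chromatin it is known from active promoters and enhancers and from the anchors of loops held by CTCF and cohesin. METTL7A belongs to the methyltransferase-like family. Proximal 20q is a gene-rich part of the genome that is often gained in carcinomas, and it is known to carry BCL2L1 (an inhibitor of apoptosis), SRC (a tyrosine kinase), E2F1 (a cell cycle transcription factor), DNMT3B (a DNA methyltransferase), ASXL1 (a chromatin regulator) and TOP1 (DNA topoisomerase I). Gene positions on GRCh37 were not used here, so members are given by coordinates and none is assigned to a gene.

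Untreated wild type had by far the most TOP2B intervals in proximal 20q. They made up 2.55% of its list (95% interval 2.3 to 2.81), against 1.08% in the untreated knockout (0.907 to 1.28), 1.29% (1.08 to 1.54) in wild type under osimertinib and 0.707% (0.530 to 0.924) in the knockout under osimertinib. The members covered 1.12 Mb in untreated wild type, which is 11.2% of the region. They covered 0.216 Mb in the untreated knockout (2.16%), 0.143 Mb (1.43%) in treated wild type and 0.0611 Mb (0.611%) in the treated knockout. The order of the 4 lists by covered length was the same as by number of members.

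Relative to chromosome 20 alone, the order of the lists was different. Proximal 20q held 14.6% of the chromosome 20 intervals in untreated wild type (13.3 to 16.0) and 22.2% in treated wild type (18.8 to 25.9), but 5.34% in the untreated knockout (4.49 to 6.28) and 3.56% in the treated knockout (2.68 to 4.63). Both wild-type shares lay above both knockout shares. They rest on the member counts known when the region was chosen, so this order describes the region and tests nothing. Counted by called peaks, where all pieces of 1 peak count once, the shares were 18.0, 20.6, 5.33 and 3.97% in the same order.

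Density differed between the flanks and along each of them. Untreated wild type had 38.9 intervals per Mb in proximal 20q, 10.4 in the first 30 Mb and 85.7 from 40 Mb to the last interval of the chromosome. Treated wild type had 12.5, 3.6 and 14.4 intervals per Mb in these 3 stretches. For the untreated knockout the values were 13.5, 14.03 and 86.2, and in the treated knockout 5.3, 6.5 and 54.2, so that proximal 20q was denser than the first 30 Mb in both wild-type lists and slightly sparser in both knockout lists. The first 30 Mb are uneven: without their first 5 Mb they had 4.92 and 2.36 intervals per Mb in untreated and treated wild type and 8.32 and 3.4 in the untreated and treated knockout, below proximal 20q in every list. Proximal 20q was sparser than the stretch from 40 Mb on in all 4 lists, and the difference was smallest in treated wild type. There the order depended on the end of the chromosome, since 40 to 60 Mb had 9.8 intervals per Mb and 60 Mb onward 46.01.

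Members were spread over the whole region, with 1 thin window. In untreated wild type the 1 Mb windows from 30 to 40 Mb held, over 10 windows, 42, 66, 33, 27, 39, 48, 54, 39, 6 and 35 intervals in order of position. In the untreated knockout they held 13, 29, 9, 16, 13, 8, 24, 12, 1 and 10. Treated wild type had 13, 27, 10, 13, 10, 15, 17, 12, 1 and 7 intervals, and the treated knockout had 6, 6, 3, 5, 9, 4, 7, 7, 3 and 3. The window from 31 to 32 Mb was the fullest in 3 of the lists, and in the treated knockout it was the window from 34 to 35 Mb. The window from 38 to 39 Mb was the emptiest in all but the treated knockout, where it tied with others at 3.

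**Figure D1:**
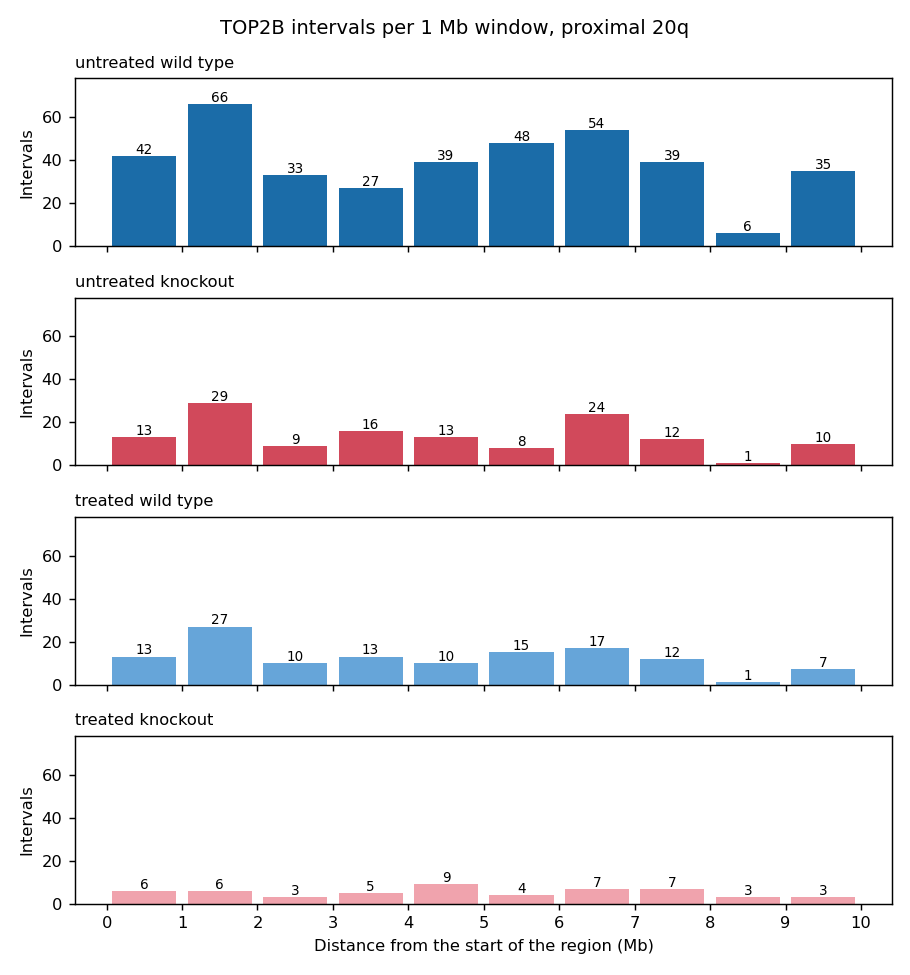
Number of TOP2B intervals in each 1 Mb window of proximal 20q (vertical axis) against distance from the start of the region in Mb (horizontal axis), with 1 panel for each of the 4 lists and the count printed over each bar. Untreated wild type is the highest in every window, from 6 to 66 intervals, and the ninth window is nearly empty in the first 3 panels.

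The longest stretch without a member lay at or next to that window in every list. It ran from 38305401 to 38718150 in untreated wild type (413 kb), from 38272851 to 39319550 in the untreated knockout (1047 kb), from 38277251 to 39072700 in treated wild type (795 kb), and from 38481851 to 39804650 in the treated knockout (1323 kb). The 4 stretches have 38481851 to 38718150 in common. Such a stretch says that no peak was listed there, not that the signal was zero.

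Across the 10 windows the counts of untreated and treated wild type had a Spearman's rho of 0.82, those of untreated wild type and untreated knockout 0.55, those of the 2 knockout lists 0.65 and those of the 2 treated lists 0.45. The matching values of Pearson's r were 0.91, 0.82, 0.52 and 0.39. The windows are neighbours in single lists, the window from 38 to 39 Mb weighs on each value, and with 53 members the treated knockout has few intervals in any window, so these values only describe the profiles.

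Untreated knockout against untreated wild type is the comparison that asks what the loss of METTL7A changes without drug, and it is the one the region was chosen for. The ratio of list shares was 0.424 (0.346 to 0.518) by intervals and 0.425 (0.342 to 0.526) by called peaks, so the splitting of broad peaks does not move it. All 10 windows had a ratio below 1. The lowest was at 35 to 36 Mb with 8 and 48 intervals, a ratio of 0.214 (0.0833 to 0.435), and the highest at 33 to 34 Mb with 16 and 27 intervals, a ratio of 0.734 (0.365 to 1.39). A window was examined when either list had at least 20 intervals in it, and it was called when the share, with 0.5 added to each count, was at least 2-fold different. Of the 9 windows examined, 6 were called lower in the knockout and 0 were called higher. Over all 231 windows of the genome examined in this comparison, 13.4% were called lower and 1.3% higher. Since the region was chosen on this contrast, nothing is read from that difference.

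Under osimertinib the knockout also held the smaller share of its list in proximal 20q, with a ratio to treated wild type of 0.546 (0.389 to 0.759) by intervals and 0.592 (0.408 to 0.851) by called peaks. The ratio was below 1 in 8 of the 10 windows. It was 1.17 at 34 to 35 Mb (9 and 10 intervals) and 3.01 at 38 to 39 Mb (3 and 1), where the counts are too few to tell the lists apart. The window from 31 to 32 Mb, with 6 and 27 intervals, was the only one full enough to be examined, and its ratio of 0.305 (0.0967 to 0.708) made it 1 of 1 called lower. Over the 212 windows of the genome examined, 49.5% were called lower and 33% higher, so a lower call was common in this comparison.

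In wild type, treated cells had a lower share than untreated cells in all 10 windows, and the ratio for the region was 0.509 (0.412 to 0.624), or 0.532 by called peaks (0.414 to 0.679). Most windows lay close to that value. The 9 examined windows had ratios from 0.334 at 39 to 40 Mb (7 and 35 intervals) to 0.777 at 33 to 34 Mb (13 and 27), and 5 of them lay between 0.496 and 0.508. Of the 9, 3 were called lower and 0 higher, where 37.5% of the 307 examined windows of the genome were called lower and 29.6% higher. The count of 3 is close to that background, and 4 further windows had ratios between 0.50 and 0.51, just short of the 2-fold mark.

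In the knockout, the share under osimertinib was 0.655 of that without drug (0.467 to 0.906) by intervals and 0.742 by called peaks, where the interval of 0.521 to 1.04 included 1. Of the 10 windows, 7 had a ratio below 1 with 0.5 added to each count. The window from 37 to 38 Mb, with 7 and 12 intervals, was at 1.00, and without the added 0.5 it falls below 1. The 2 examined windows held 6 and 29 intervals at 31 to 32 Mb, a ratio of 0.367 (0.117 to 0.846), and 7 and 24 at 36 to 37 Mb, a ratio of 0.510 (0.177 to 1.2). Of these, 1 was called lower and 0 higher, beside 10.1% lower and 3.16% higher over the 158 windows of the genome. With 53 treated members, most windows of the region were too thin to compare.

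In the comparison of genotypes the ratio was below 1 in proximal 20q and above 1 in both of its neighbours. In the first 30 Mb of chromosome 20 the knockout had the larger share, with ratios to wild type of 1.65 (1.42 to 1.92) without drug and 2.33 (1.83 to 2.97) under osimertinib. From 40 Mb to the end the ratios were 1.23 (1.15 to 1.31) and 4.85 (4.29 to 5.49). In proximal 20q they were 0.424 and 0.546. The region was chosen with its counts known, so nothing is read from its difference to the neighbours. Windows of 5 Mb along the chromosome were compared with 0.5 added to each count. Those at 30 to 35 Mb and 35 to 40 Mb had ratios of 0.475 and 0.372 without drug. Their ratios under osimertinib were 0.517 and 0.601. Without drug every other 5 Mb window had a ratio from 0.996 to 2.25. Under osimertinib the other windows had ratios from 1.35 to 10.7, except 25 to 30 Mb, which was at 0.670 with 6 and 12 intervals. The value of 10.7 came from only 12 and 1 intervals in treated knockout and treated wild type, at 10 to 15 Mb.

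**Figure D2:**
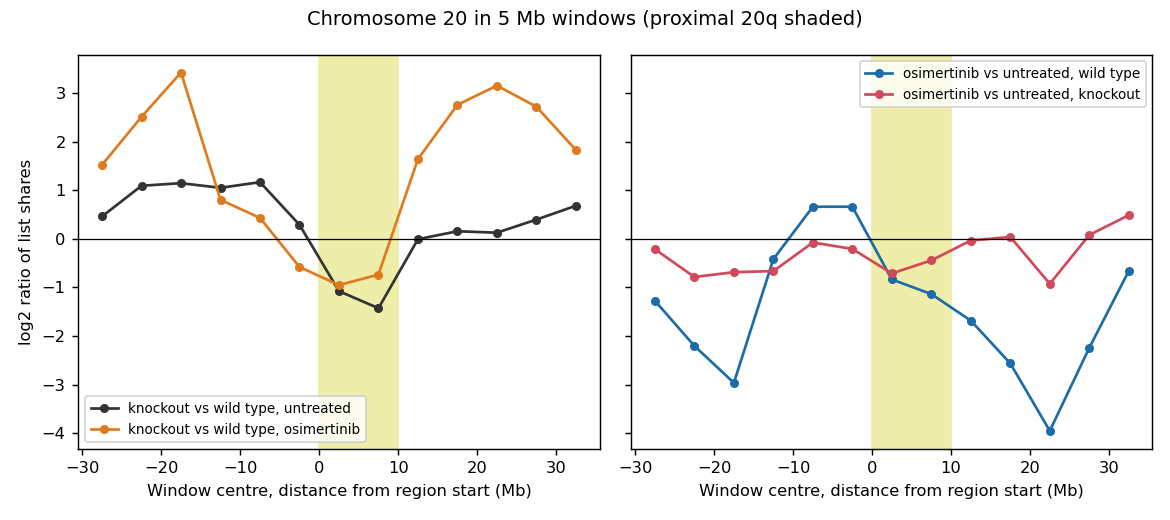
Log2 ratio of list shares in 5 Mb windows of chromosome 20 (vertical axis) against the distance of the window centre from the start of proximal 20q in Mb (horizontal axis), for the 2 comparisons of genotype (left) and the 2 of treatment (right), with proximal 20q shaded. Each point is 1 ratio with no replicate. Both genotype lines are below 0 in the 2 shaded windows, at -1.08 and -1.43 without drug and -0.95 and -0.73 under osimertinib.

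For the comparison of treatment in wild type, the treated share was 0.266 of the untreated one (0.236 to 0.299) from 40 Mb to the end, below the 0.509 of proximal 20q, while the first 30 Mb had a ratio of 0.548 (0.436 to 0.684) that overlapped it. By called peaks the ratio from 40 Mb on was 0.412 (0.357 to 0.474), whose interval overlapped that of proximal 20q (0.532, 0.414 to 0.679), so this contrast depends on counting the pieces of split peaks. In the knockout the ratios were 0.655 in proximal 20q, 0.772 (0.648 to 0.917) in the first 30 Mb and 1.05 (0.976 to 1.13) from 40 Mb. By called peaks the values for proximal 20q and from 40 Mb on were 0.742 (0.521 to 1.04) and 1.04 (0.964 to 1.13), with overlapping intervals. Each of the 4 comparisons shares lists with 2 of the others, so their values are not independent of each other.

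The upper boundary of 40 Mb was part of the rule, and the pattern did not stop there. Between 40 and 42 Mb the lists held 46, 13, 12 and 1 intervals in untreated wild type, untreated knockout, treated wild type and treated knockout. The ratio of knockout to wild type was 0.346 (0.171 to 0.651) without drug in this stretch and 0.107 (0.00251 to 0.726) under osimertinib. From 42 Mb on the ratios were 1.25 (1.17 to 1.33) and 5.03 (4.44 to 5.71). In windows of 0.5 Mb the untreated knockout went from 6 intervals at 41.5 to 42 Mb to 22 at 42 to 42.5 Mb and 42 at 43.5 to 44 Mb, and untreated wild type from 22 to 48 and then 35. The treated knockout had 0 and then 22 intervals in the windows on either side of 42 Mb. The position of 42 Mb was chosen after these windows had been seen.

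The lower boundary fell in a nearly empty stretch. The window from 29 to 30 Mb held 2 intervals in untreated wild type and in the treated knockout, and 1 in each of the other lists. The last interval before 30 Mb in untreated wild type was at 29991051 to 29991150, with a maximum 0.667 times the list median, and the first one inside at 30062501 to 30065750, with a maximum at the median. At 40 Mb the last one inside was at 39989051 to 39994650 and the first outside at 40002601 to 40004550, both with a maximum 1.25 times the list median. In the untreated knockout the first interval inside was at 30266251 to 30267800 (1.6 times) and the last at 39989051 to 39990650 (at the median).

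Widths in proximal 20q followed those of the lists. The median width was 2500 bp in untreated wild type (interquartile range 1900 to 3400), beside 2600 bp in the rest of that list. It was 1650 bp in the untreated knockout (1125 to 2075), equal to the rest of the list, and 1100 bp in treated wild type (900 to 1350), beside 1200 bp. In the treated knockout it was 1200 bp (900 to 1450), beside 1150 bp. The intervals from 40 Mb on were wider in untreated wild type, with a median of 2950 bp and an upper quartile of 4700 bp. Every list had members as narrow as 50 or 100 bp, which is 1 or 2 steps of the 50 bp grid on which the intervals lie.

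**Figure D3:**
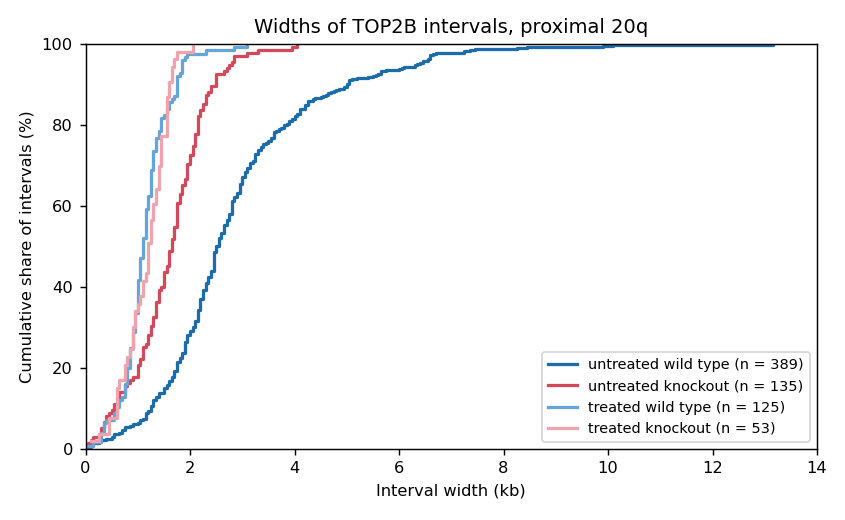
Cumulative share of the proximal 20q intervals in percent (vertical axis) by interval width in kb (horizontal axis), with 1 line for each list. The line of untreated wild type lies to the right of the others and reaches 13150 bp, while the widest treated knockout interval has 2050 bp.

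Many members were pieces of a broader peak. A called peak carries an area, a maximum and the position of the maximum, and intervals of a list that share all 3 are pieces of 1 peak. In untreated wild type 55.0% of the members (49.9 to 60.03) were such pieces, beside 49.8% of the rest of the list and 73.6% of the intervals from 40 Mb on. In the untreated knockout it was 4.44% (1.65 to 9.42), beside 3.33% of the rest, and in treated wild type 49.6% (40.5 to 58.7), beside 49.9%. In the treated knockout 18.9% were pieces (9.44 to 32.0), beside 33.8% of the rest. The members came from 265, 132, 89 and 48 called peaks in untreated wild type, untreated knockout, treated wild type and treated knockout, and no called peak gave more than 5 pieces.

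The signal of the members was close to that of the list in the untreated lists and lower than that of the list in the treated ones. The maximum of a called peak is the highest coverage in it, and it came in whole multiples of 1 step per list. The members' maxima ran from 6 to 18 steps in untreated wild type with a median of 12, from 3 to 9 with a median of 5 in the untreated knockout, in treated wild type from 6 to 17 with a median of 10, and in the treated knockout from 4 to 10 with a median of 7. Relative to the median maximum of the list, the members' median was 1.0 in both untreated lists, 0.909 in treated wild type and 0.875 in the knockout under osimertinib. Members from peaks at or above the list median made up 51.2% in untreated wild type (46.1 to 56.2), beside 51.9% of the rest of the list, and 68.1% in the untreated knockout (59.6 to 75.9), beside 74.3%. They made up 50 of 125 in treated wild type (40%, 31.3 to 49.1), beside 58.9%, and 34.0% in the knockout under osimertinib (21.5 to 48.3), beside 64.3%. The highest member reached 1.5, 1.8, 1.55 and 1.25 times the list median in that order. From 40 Mb on the median was higher in the 2 untreated lists, at 1.17 times in wild type and 1.2 times in the knockout. Treated wild type had the same 0.909 times in the first 30 Mb and from 40 Mb on. The treated knockout had the same 0.875 times in the first 30 Mb and 1.0 times from 40 Mb on. The lower treated values are thus not particular to proximal 20q. Steps are not comparable between lists, and the maximum lay outside the interval itself for 56.3% of the members in untreated wild type and 70.4% in treated wild type, against 17.8% and 39.6% in the knockout lists.

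Most positions were held by 1 list. When the members of all 4 lists were merged where they overlapped, they formed 525 loci. Of these, 397 (75.6%, 71.7 to 79.2) were held by 1 list, 103 (19.6%) by 2, 21 (4.0%) by 3 and 4 (0.762%, 0.208 to 1.94) by all 4. From 40 Mb on, 50.9% of 2560 loci (48.9 to 52.8) were held by 1 list and 5.74% (4.87 to 6.71) by all 4. In the first 30 Mb the shares were 73.6% (70.3 to 76.7) and 1.07% (0.464 to 2.10) of 746 loci, close to those of proximal 20q. Untreated wild type held 385 of the 525 loci and was alone at 268 of them, which is 69.6% of its loci. The untreated knockout was alone at 51 of its 128 loci (39.8%), treated wild type at 51 of 116 (43.97%) and the treated knockout at 27 of 53 (50.9%). These shares per list were not computed outside the region and depend on how many members each list has. None of them is therefore read as high or low.

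**Figure D4:**
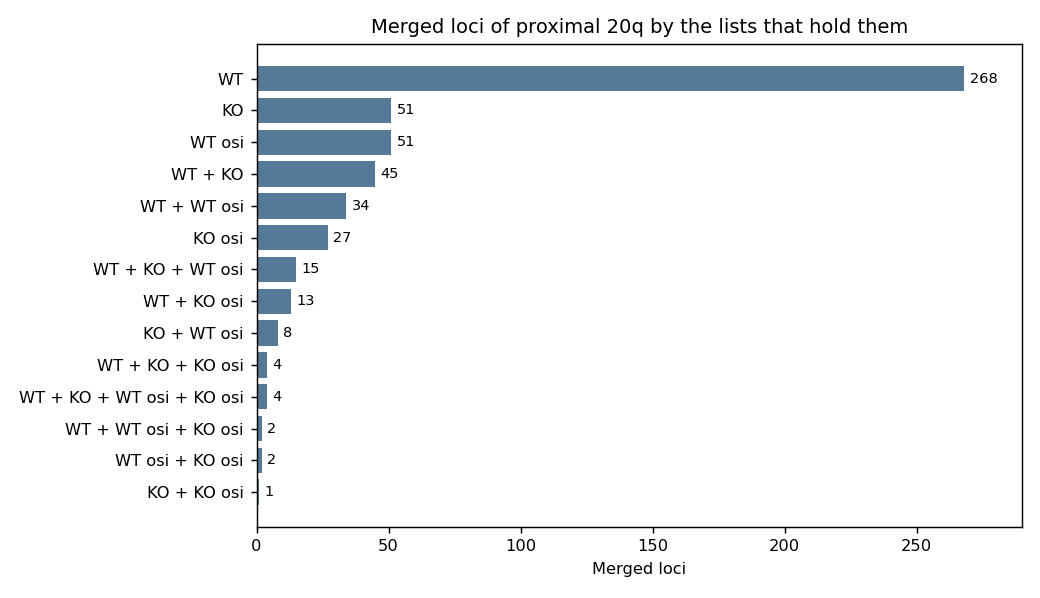
Number of merged loci of proximal 20q (horizontal axis) for each combination of lists that holds them (vertical axis; WT is wild type, KO the METTL7A knockout and osi osimertinib). Loci of untreated wild type alone number 268 of 525, and the most frequent pair, untreated wild type with the untreated knockout, numbers 45.

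The 4 loci held in every list were at 33871651 to 33876050 (4400 bp), 34098251 to 34105300 (7050 bp), 35978651 to 35988550 (9900 bp) and 39968051 to 39977750 (9700 bp). Their maxima were near or above the list median in untreated wild type, at 1.25, 1.25, 1.08 and 1.25 times in order of position. The untreated knockout had 1.0 times at the first locus, 1.0 and 0.8 times in 2 intervals at the second, 0.8 and 0.6 times in 2 intervals at the third and 1.2 times at the last. Treated wild type had 1.09, 1.09, 1.18 and 0.909 times, and the treated knockout 1.0, 0.625, 0.75 and 0.875 times. The intervals did not all overlap each other within a locus, and at none of the 4 loci was any base covered by all lists. At 34098251 to 34105300 the untreated knockout intervals ended at 34102350, before both treated intervals began. At 35978651 to 35988550 the treated wild-type interval ended at 35981650 and the treated knockout interval began at 35986451. At 39968051 to 39977750 the untreated wild-type interval spanned 39970501 to 39977750. The untreated knockout interval, at 39968051 to 39970550, overlapped only its first bases, and the treated knockout interval, at 39968601 to 39969200, lay wholly before it. The treated wild-type interval was at its upper end, at 39976651 to 39977750. At 33871651 to 33876050 the 2 knockout intervals and the untreated wild-type interval shared the stretch from 33872501 to 33873350, and the treated wild-type interval began at 33874701, beyond the end of both knockout intervals.

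A member had a counterpart when an interval of another list overlapped it by at least 1 bp. Of the 389 untreated wild-type members, 319 had no counterpart in the untreated knockout, and over the whole list that share was 64.9%. The share with one was 18.0% in proximal 20q (14.3 to 22.2), 35.6% in the rest of the list (34.8 to 36.4), 37.2% in the first 30 Mb (31.8 to 42.8) and 55.9% from 40 Mb on (53.7 to 58.1). The intervals for proximal 20q and for each of these did not overlap. Of the 135 untreated knockout members, 61 had no counterpart in untreated wild type, beside 46.3% over the whole list. The share with one was 54.8% (46.0 to 63.4), near the 53.7% of the rest of the list, above the 31.1% of the first 30 Mb (26.7 to 35.8) and below the 74.5% from 40 Mb on (72.5 to 76.4). A count of counterparts depends on how many intervals the other list has in the region, and 135 stand against 389 here.

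The lower share in untreated wild type was seen in the classes of width above 1500 bp. As the region was chosen with the numbers of members known, a low share could follow from that choice in any class. Among members over 3000 bp, 27.3% (35 of 128, 19.8 to 35.9) had a counterpart in the untreated knockout, beside 53.8% in the first 30 Mb (43.1 to 64.4) and 73.6% from 40 Mb on (70.7 to 76.4). Above 1500 and up to 3000 bp it was 14.3% (29 of 203, 9.78 to 19.9), beside 34.2% (27.4 to 41.6) and 43.0% (39.5 to 46.5). Up to 1500 bp the shares of 10.3% (6 of 58, 3.89 to 21.2), 10.8% and 21.9% had overlapping intervals. The 70 members with a counterpart were also wider, with a median of 3025 bp against 2450 bp for the 319 without, and their peaks were higher, with a median of 13 against 11 steps.

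Untreated knockout members without a wild-type counterpart lay close to wild-type intervals. Their median distance to the nearest one was 2.85 kb (interquartile range 1.1 to 6.3), and 70.5% of them were within 5 kb. In the opposite direction, the 319 untreated wild-type members without a knockout counterpart were at a median of 13.7 kb from the nearest knockout interval (5.75 to 37.9), with 21.6% within 5 kb. The sparser list always lies farther away, so the 2 distances are not a comparison of the genotypes. The median gap between neighbouring members was 8.55 kb in untreated wild type and 27.5 kb in the untreated knockout. With such gaps many positions lie within a few kb of a wild-type interval.

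Treated wild-type positions in proximal 20q were mostly at or near untreated ones. Of the 125 members, 63 had no counterpart in untreated wild type, beside 71.3% over the whole list. The share with one was 49.6% (40.5 to 58.7), above the 28.4% of the rest of the list (27.5 to 29.3), not separable from the 35.2% of the first 30 Mb (26.2 to 45.0) and below the 85.2% from 40 Mb on (80.8 to 88.8). The 63 members without one had a median distance of 3.8 kb to the nearest untreated interval. Untreated wild-type intervals covered 11.2% of the region, with a median gap of 8.55 kb between neighbours. Overlap and short distances depend on this density, so these values are not read as positions kept under treatment. Of the 389 untreated members, 333 had no treated counterpart, beside 85.2% of the whole list, and the share of 14.4% with one (11.1 to 18.3) was close to the 14.9% of the rest of the list, the 11.2% of the first 30 Mb and the 11.4% from 40 Mb on.

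The 2 knockout lists had few positions in common in proximal 20q. Of the 135 untreated members, 129 had no counterpart in the treated knockout, beside 76.6% over the whole list. The 4.44% with one (1.65 to 9.42) compare with 23.6% in the rest of the list (22.8 to 24.3) and 31.6% from 40 Mb on (29.6 to 33.7). Of the 53 treated members, 48 had no untreated counterpart, beside 56.3%, and the 9.43% with one (3.13 to 20.7) compare with 43.9% in the rest of the list (42.8 to 45.0) and 54.5% from 40 Mb on (51.7 to 57.3). In the first 30 Mb the shares were 10.9% (8.11 to 14.3) and 24.1% (18.3 to 30.7), whose intervals overlapped those of proximal 20q. The treated knockout had 5.3 intervals per Mb in proximal 20q and 54.2 from 40 Mb on, and the untreated knockout 13.5 and 86.2. The member counts were known when the region was chosen, so low shares could follow from that choice. More treated knockout members lay on untreated wild-type intervals, 22 of 53 (41.5%, 28.1 to 55.9), than on untreated knockout intervals, 5 of 53, but the wild-type list has more and wider intervals there. The other 31 compare with a whole-list share of 40.4% without an untreated wild-type counterpart.

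Between the treated lists the overlap was slight. Of the 125 treated wild-type members, 121 had no counterpart in the treated knockout, beside 89.5% over the whole list, and the share with one was 3.20% (0.879 to 7.99), below the 10.6% of the rest of the list (9.98 to 11.2) and the 38.2% from 40 Mb on (32.9 to 43.7). Of the 53 treated knockout members, 49 had none in treated wild type, beside 86.6%, and the 7.55% with one (2.09 to 18.2) overlapped the 13.5% of the rest and the 10.3% from 40 Mb on. The numbers of 125 and 53 members were known when the region was chosen, so low shares could follow from that choice.

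Between lists that differ in both genotype and treatment, 367 of the 389 untreated wild-type members had no counterpart in the treated knockout, beside 78.9% over the whole list. Of the 135 untreated knockout members, 117 had none in treated wild type, beside 88%, and of the 125 treated wild-type members, 107 had none in the untreated knockout, beside 83.4%. These counts too depend on how many intervals the other list has in the region, so nothing is read from them.

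**Figure D5:**
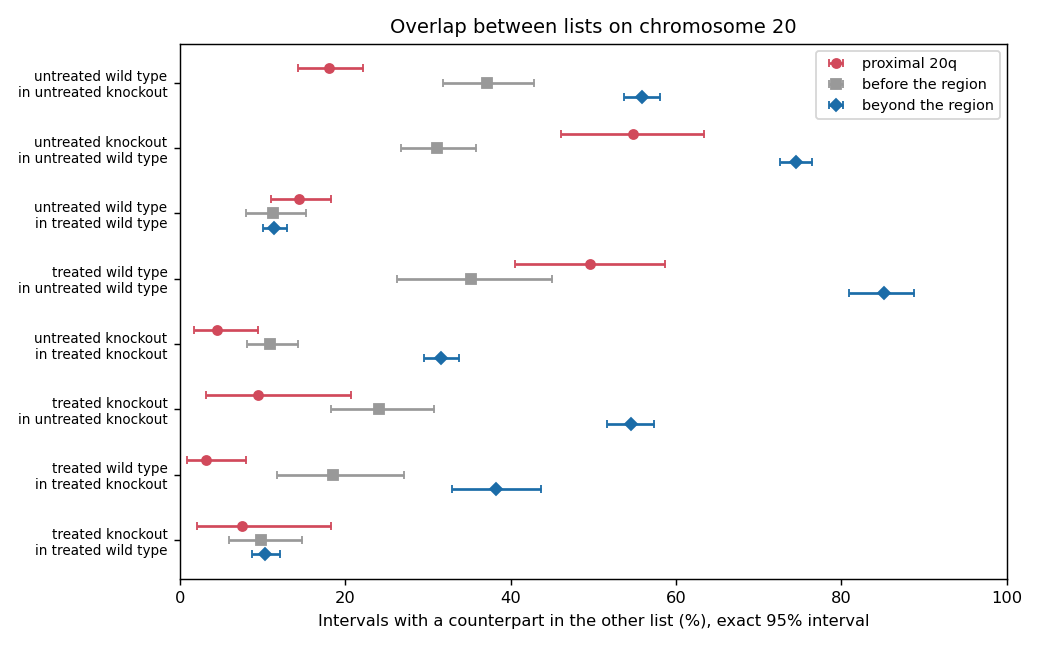
Share of intervals with a counterpart in another list in percent (horizontal axis) for 8 ordered pairs of lists (vertical axis), in proximal 20q (circles), the first 30 Mb (squares) and chromosome 20 from 40 Mb on (diamonds), with exact 95% intervals for counting error. Proximal 20q is at 18.0% and the stretch from 40 Mb on at 55.9% for untreated wild type in the untreated knockout, while the 3 points lie together near 11 to 14% for untreated wild type in treated wild type.

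The highest called peaks of proximal 20q were at different positions in each list. In untreated wild type, 2 peaks reached 18 steps, 1.5 times the list median: one gave 2 pieces between 30581151 and 30588650 and the other 3 pieces between 36015701 and 36033650. The next, at 17 steps, gave 2 pieces between 36849101 and 36856900. In the untreated knockout the highest peak, at 35456201 to 35457950, reached 9 steps (1.8 times) and had no counterpart in any other list. It was followed by 5 peaks of 8 steps (1.6 times). The largest of these by area lay in 2 pieces between 31151201 and 31159050, and the next at 33865751 to 33867400. The former, in its lower piece, overlapped intervals of both wild-type lists, and the latter overlapped none.

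In treated wild type the intervals at 35402001 to 35403000 and 31768201 to 31768500 belonged to peaks of 17 steps (1.55 times the list median), and both overlapped an untreated wild-type interval. Next came 7 peaks of 13 steps (1.18 times), of which the one with the largest area had 2 pieces between 35976051 and 35981650 and reached the locus at 35978651 that all 4 lists hold. In the treated knockout, peaks of 10 steps (1.25 times) lay at 33298851 to 33301250, in 2 pieces, and at 36926601 to 36927850. Of 6 peaks of 9 steps, the one with the largest area lay at 30402601 to 30404050. The intervals at 36926601 and 30402601 had no counterpart in any other list.

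The widest members were those of untreated wild type, at 31054051 to 31067200 (13150 bp), 34961201 to 34971300 (10100 bp) and 35978651 to 35988550 (9900 bp). The last of them is the wild-type interval of a locus that all 4 lists hold, and the first overlapped intervals of both treated lists but none of the untreated knockout. In the untreated knockout the widest were at 31109301 to 31113350 (4050 bp), 34790601 to 34794550 (3950 bp) and 31162601 to 31165900 (3300 bp), of which all but the one at 34790601 overlapped untreated wild-type intervals. The widest treated wild-type members, at 33891001 to 33894100 (3100 bp), 30061901 to 30064750 (2850 bp) and 31023851 to 31026150 (2300 bp), all overlapped untreated wild-type intervals. In the treated knockout the widest were at 39809701 to 39811750 (2050 bp), 37678001 to 37679750 (1750 bp) and 33883801 to 33885500 (1700 bp).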

How the data were processed

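TOP2B CUT&RUN peak lists of PC9 cells were used, 1 for each combination of genotype and treatment. The submitters' processing notes name SEACR (a peak caller), bedtools 2.30, deepTools 3.5.1, SAMtools 1.16, Bowtie2 2.4.2, FastQC and Trimmomatic, and the build GRCh37. How the peaks were called, with which control and scaling, and whether duplicate reads were kept is not stated there. The lists were deposited as intersections of the peaks of a group, named so by the authors, and have no header. The area of a called peak is a deposited score, and its maximum is a deposited signal, a coverage whose scaling is unknown. The maximum came in whole steps (tolerance 0.01 steps) of 0.0392 and 0.0535 in the untreated and treated wild-type lists and of 0.0723 and 0.0379 in the untreated and treated knockout lists, so maxima were used within a list only. Library depth is unknown from these lists, and DNA copy number was not measured. The H2A samples were not analysed here.

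Positions are on GRCh37, counted from 1. The 95% interval of a share is the exact Clopper-Pearson one, and that of a ratio of shares is the exact conditional one. Neighbouring intervals are not independent, so these are too narrow. The functions were tested on simulated data. Python 3.11.15, pandas 2.3.3 and scipy 1.17.1 were used. The positions named were all 1 Mb windows, the 3 highest called peaks and 3 widest intervals per list, the loci held by all lists and the longest empty stretches. The members, the lists of positions and the rules were chosen with earlier results of these data known.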

Additional observations from a re-analysis of the deposited data

How the results depend on the processing

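No paired analysis was possible because each condition has 1 list made from both replicates, and for the same reason no replicate could be left out. Of 94 alternative values, 68 stayed within the counting error of the value reported (within 1.5 times for counts) and 26 moved; no share ratio crossed 1. With called peaks whose maximum was at or above the list median, the share of the list was 0.883% for treated wild type and 0.375% for the treated knockout, and the ratio of treated to untreated was 0.352 in wild type and 0.378 in the knockout. Extending the region to 42 Mb, chosen after seeing the data, raised the share in untreated wild type to 2.85%. In windows of 0.5 Mb (at least 10 intervals), 13 of 18 were past 2-fold for untreated genotypes and 4 of 5 for treated genotypes. They numbered 9 of 18 for treatment in wild type and 3 of 4 for treatment in the knockout. For the treated genotypes, 1 Mb windows past 2-fold numbered 3 of 8 with a minimum of 10 intervals and 0 of 0 by called peaks. Both directions are counted together here. The share over the genome was not computed at these settings, so nothing is read from these counts. A reciprocal overlap of 50% lowered the share with a counterpart to 16.3% for untreated knockout in untreated wild type and 5.66% in the opposite direction, to 4.0% for treated in untreated wild type and 1.29% in the opposite direction, and to 0 for both directions of the treated lists and of the knockout lists. Within 1 kb, untreated knockout in untreated wild type came to 65.2% and treated in untreated wild type to 59.2%. Among untreated wild-type members at or above the median maximum, 25.6% had an untreated knockout counterpart. Loci held by all 4 lists numbered 7 when merged within 1 kb and 1 at or above the median maximum. The median span of called peaks was 3150 bp in untreated wild type and 1300 bp in treated wild type. The cause of these shifts was not tested.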

Other observations

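Within proximal 20q, the 0.25 Mb stretch from 31 to 31.25 Mb was among the 3 fullest of 40, ties included, in all 4 lists, with 19 and 8 intervals in untreated and treated wild type and 13 and 4 in the untreated and treated knockout. In the untreated knockout it held 9.63% of the members. The stretch from 35 to 35.25 Mb was the fullest in untreated wild type with 21 intervals, while the untreated knockout had 2 there, treated wild type 8 and the treated knockout 2. At 33.5 to 33.75 Mb the untreated knockout had 9 intervals and untreated wild type 7, the reverse of their order over the region. The number of empty stretches was 1 and 7 in untreated and treated wild type and 8 and 14 in the untreated and treated knockout.

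Called peaks of proximal 20q stood farther apart than those beyond 40 Mb in every list. The median gap between neighbouring called peaks was 14.3 kb against 7.5 kb in untreated wild type, 28 kb against 4.3 kb in the untreated knockout, 71.1 kb against 34.0 kb in treated wild type, and 135 kb against 8.65 kb in the treated knockout. Gaps under 5 kb made up 16.0% in the untreated knockout, where they made up 54.9% beyond 40 Mb, and 15.5% in untreated wild type against 32.9%.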
